A study of Homo sapiens with 18 samples.

Results

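The genes described here are those of cytoplasmic and nuclear mRNA decay: the decapping enzyme and its cofactors, the LSM ring, the 5'-3' exonucleases, the deadenylases, the poly(A)-binding proteins, the RNA exosome and the nonsense-mediated decay factors. They were listed by function, with earlier results of these data known. The list held 51 genes of the 19289 gene symbols in the data, read by 59 of the 21111 probes. DCP2 and PABPC1 were singled out within the list for their measured response to ASAP1 silencing, so their values after silencing are given as a description, without a test. ASAP1 is an Arf GTPase-activating protein, and the study asked how its depletion changes gene expression in triple-negative breast cancer (TNBC) cells that carry ASAP1 amplification. The mesenchymal-like lines BT549 and Hs578T and the basal-like line SUM149PT were transfected with a 50 nM pool of siRNAs against ASAP1 (siASAP1) or with control siRNA (siCtrl, called non-targeting by the study and described in its methods as a mixture of kinase siRNAs) and collected after 72 h, in 3 replicates each, which gave 18 libraries. The libraries were made with TempO-Seq, in which a pair of oligos is ligated on each target RNA and the ligation products are counted, and held 4633629 to 12488575 reads.

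A cytoplasmic mRNA usually starts to decay when its poly(A) tail is shortened, first by PAN2-PAN3 and then by the CCR4-NOT complex. The PATL1 protein and the LSM1 to LSM7 ring then bind the shortened end, DCP2 removes the 5' cap with the help of DCP1A, EDC3, EDC4 and the helicase DDX6, and XRN1 degrades the body from the 5' end, while the exosome degrades RNA from the 3' end. Nonsense-mediated decay feeds transcripts with a premature stop codon into the same enzymes through UPF1 and the SMG proteins.

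DCP2, picked for its response, and CNOT4 are described below as higher after siASAP1, and EXOSC2 and EXOSC8 as lower in SUM149PT cells. The calls of CNOT4 and EXOSC2 depended on which libraries were used. The start-site regions of these 4 members are shown. Each runs from 250 bases before to 50 bases after a RefSeq start site on GRCh38.p14, 5' to 3' on the strand of the gene, with the motifs in capitals. Each motif was searched on both strands. The CCAAT box was searched as CCAAT, which reads ATTGG on the opposite strand. The E-box was searched as CACGTG, the ETS core as CCGGAAG and the cyclic AMP response element as TGACGTCA. No match overlapped another in these regions. The regions are chr5:112976548-112976847 on the plus strand for DCP2, chr7:135510053-135510352 on the minus strand for CNOT4, chr9:130693510-130693809 on the plus strand for EXOSC2 and chr13:37000536-37000835 on the plus strand for EXOSC8.
DCP2: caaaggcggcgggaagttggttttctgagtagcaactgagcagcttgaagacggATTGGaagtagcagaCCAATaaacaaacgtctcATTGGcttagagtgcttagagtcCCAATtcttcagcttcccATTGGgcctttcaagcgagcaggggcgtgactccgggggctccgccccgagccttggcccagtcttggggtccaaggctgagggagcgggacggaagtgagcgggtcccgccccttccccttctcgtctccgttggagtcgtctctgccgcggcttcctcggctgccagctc
CNOT4: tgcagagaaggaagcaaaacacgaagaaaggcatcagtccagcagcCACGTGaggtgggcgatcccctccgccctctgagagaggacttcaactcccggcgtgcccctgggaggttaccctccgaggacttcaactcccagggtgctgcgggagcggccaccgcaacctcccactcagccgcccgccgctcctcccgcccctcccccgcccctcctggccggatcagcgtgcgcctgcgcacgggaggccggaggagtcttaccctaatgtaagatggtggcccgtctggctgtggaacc
EXOSC2: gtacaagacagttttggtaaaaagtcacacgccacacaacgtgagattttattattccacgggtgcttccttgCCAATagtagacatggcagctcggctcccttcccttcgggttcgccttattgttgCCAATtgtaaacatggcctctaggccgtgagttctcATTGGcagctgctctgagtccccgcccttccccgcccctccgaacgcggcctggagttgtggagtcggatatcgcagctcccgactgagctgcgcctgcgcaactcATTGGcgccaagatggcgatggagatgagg
EXOSC8: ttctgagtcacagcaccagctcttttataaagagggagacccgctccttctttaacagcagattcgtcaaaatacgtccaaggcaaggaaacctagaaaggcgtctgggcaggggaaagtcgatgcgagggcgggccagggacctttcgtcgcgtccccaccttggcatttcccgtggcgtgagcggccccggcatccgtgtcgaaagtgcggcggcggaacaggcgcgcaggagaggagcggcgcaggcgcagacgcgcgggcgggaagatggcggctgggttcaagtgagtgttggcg
The DCP2 region held 5 copies of CCAAT, between positions -196 and -122 from the start site, and the EXOSC2 region held 4. At least 1 copy on either strand was present in 34.6% of 35116 promoters of this length, at least 4 copies in 0.991% and at least 5 in 0.359%. The regions of CNOT4 and EXOSC8 held none. CACGTG was found once in the region of CNOT4, at position -204, and in 7.26% of all promoters. Among 63 promoters of 43 members, 20 held CCAAT and 6 held CACGTG, or 31.7% and 9.52%. CCGGAAG and TGACGTCA were in none of the 4 regions, in 10.3% and 1.85% of all promoters and in 8 and 2 of the member promoters. A match of letters does not show that a factor bound there, and no binding was measured.

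Of the 51 genes, 44 were read by a single probe, 6 by 2 probes and CNOT10 by 3 probes, and each probe is a row of its own here because levels cannot be compared between probes. Probes with a mean normalised read count of at least 10 in the libraries of a comparison were tested, which kept 49 member probes in BT549, 46 in Hs578T cells and 51 in SUM149PT. The single probes of DCP1B, LSM3, LSM4, EXOSC1, EXOSC4 and EXOSC7 and the second XRN1 probe were tested in no comparison. The 59 probes together made up 0.707% to 1.45% of a library's reads, and PABPC1 alone took 48.6% to 81.8% of those member reads. The cell line labels were checked with markers. The summed normalised count of 8 basal epithelial genes was 22122 to 43563 in SUM149PT libraries, mostly from EPCAM (18650.2 to 36679), with KRT5 at 0 to 64.1 and KRT14 at 0 in 5 of the 6 libraries, and at most 33.8 in BT549 and 167 in Hs578T libraries, where 4 of the 8 were at 0. The sum of 8 mesenchymal genes was 58336 to 111473 in BT549, 168401 to 286258 in Hs578T and 5906 to 12274 in SUM149PT libraries. Not each of them went with the sum, and 5 of the 8 reached a mean normalised count of 10 in SUM149PT. After siCtrl the mean of CDH2 was 1733 in SUM149PT against 325 in BT549, and that of PDGFRB was 6.16 in BT549. ZEB1 held at most 2.53 in any library. Of 4 blood and endothelial genes, 1 in BT549 and 2 in each of the other lines reached a mean normalised count of 10.

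ASAP1 itself was the first gene examined. Its mean normalised count after siASAP1 was, as a share of that after siCtrl, 62.3% in BT549, 49.9% in Hs578T and 36.1% in SUM149PT cells (n = 3 per group). The groups did not overlap in BT549 and Hs578T (two-sided exact permutation p = 0.1 in each, the smallest that 3 against 3 allows). They overlapped in SUM149PT (two-sided exact permutation p = 0.3), where siCtrl replicate 2 held 189 normalised counts of ASAP1 against 1087 and 1314 in the other siCtrl libraries. Without that library the share was 25.9% and the Log2 FC of ASAP1 -2.04 in place of -1.16. With all libraries the Log2 FC of ASAP1 was -0.75 (SE 0.39) in BT549 and -0.98 (SE 0.32) in Hs578T. By limma, with all libraries, ASAP1 did not meet the limits put on the member probes below in any of the 3 lines. It was not called in a limma fit of all 18 libraries either (Log2 FC -0.96, SE 0.31). The library labelled siCtrl replicate 2 also stood apart over all probes. On the main axis of variation between replicates, centred on the line, it scored 1.14 and lay with siASAP1 replicates 1 and 3 (0.61 and 0.70), while siASAP1 replicate 2 (-0.69) lay with siCtrl replicates 1 and 3 (-0.80 and -0.96). Whether these libraries carry the treatment on their labels was not tested. DCP2 and PABPC1 were picked for a difference between the labelled groups. Their separation in this line, given next, therefore does not bear on that question. The SUM149PT values named here are given again without siCtrl replicate 2 where they moved by over 1.5 times, changed sign or changed a call.

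DCP2, the catalytic subunit of the decapping enzyme, was about 2-fold higher after siASAP1 in each cell line. The gene lies on chromosome 5 (112976702 to 113020970, plus strand, GRCh38 with GENCODE release 29). In BT549 cells its normalised counts were 467, 577 and 457 after siCtrl and 843, 1145 and 1242 after siASAP1. In Hs578T cells they were 252, 370.4 and 321 after siCtrl and 592, 592 and 582 after siASAP1, and in SUM149PT cells 293, 457 and 323 after siCtrl and 684, 592 and 1003 after siASAP1. Every siASAP1 library thus lay above every siCtrl library of its own line. The Log2 FC was 1.09 (SE 0.35) for BT549, 0.92 (SE 0.27) for Hs578T and 1.07 (SE 0.41) for SUM149PT, and 1.03 (SE 0.16) in a fit of all 18 libraries that allowed each line its own level. Without SUM149PT siCtrl replicate 2 the SUM149PT value was 1.26, and that of PABPC1, described next, -0.69.

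PABPC1, the main cytoplasmic poly(A)-binding protein, was lower after siASAP1 in each line. It lies on chromosome 8 (100685816 to 100722809, minus strand), the chromosome of ASAP1, and has close copies elsewhere in the genome, so its reads may include those of a copy. Its normalised counts in BT549 were 73619, 45007.5 and 59319.9 after siCtrl and 41854, 37392.5 and 33654.5 after siASAP1. In Hs578T they were 72702, 84780.1 and 84735 against 48253, 58777 and 51822, and in SUM149PT 37289, 38899 and 39759.6 against 27031, 20878 and 24049.7. No library of one group reached the other group in any line. The Log2 FC was -0.63 (SE 0.29), -0.61 (SE 0.18) and -0.70 (SE 0.32), and -0.65 (SE 0.15) over the 18 libraries. With quantile normalization of the libraries the value was smaller, -0.31 in Hs578T and -0.25 in SUM149PT, and with scaling by library totals it was -0.48 in SUM149PT. PABPC1 took 0.757% to 1.02% of the BT549 reads after siCtrl and 0.549% to 0.685% after siASAP1. The other member probes together took 0.425% to 0.477% of BT549 reads after siCtrl and 0.497% to 0.512% after siASAP1. In the other lines their shares overlapped between the groups. They were 0.253% to 0.325% against 0.284% to 0.334% in Hs578T and 0.335% to 0.418% against 0.351% to 0.390% in SUM149PT, siCtrl first. PABPC4, the second poly(A)-binding protein on the list, was near the limit of detection, with 0 to 26.4 normalised counts, and its Log2 FC was 0.13 in Hs578T and -0.14 in SUM149PT.

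**Figure D1:**
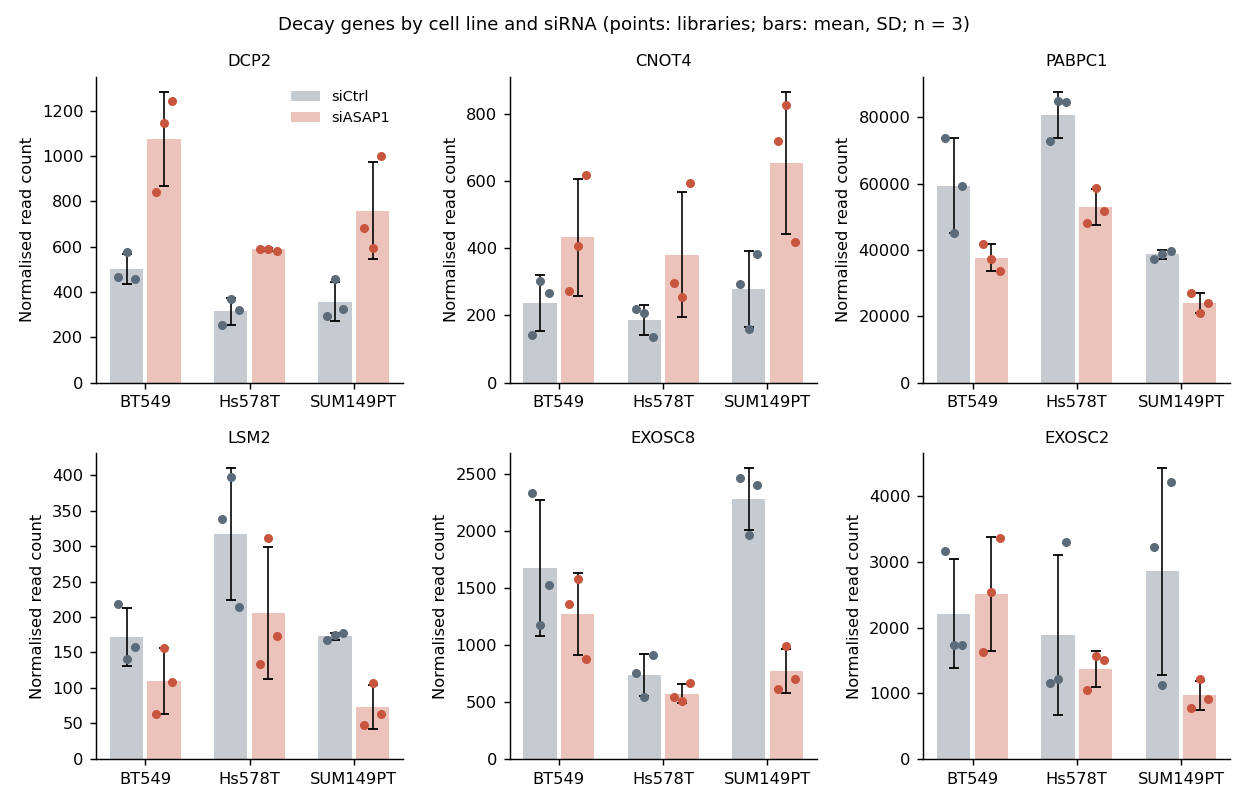
Normalised read counts (y axis, linear, from 0) of 6 decay genes in BT549, Hs578T and SUM149PT cells after siCtrl (grey) or siASAP1 (red). Points are libraries, bars are means and lines are SD (n = 3). DCP2 is higher and PABPC1 lower in every siASAP1 library of each line, whereas LSM2 and EXOSC8 separate in SUM149PT only and EXOSC2 overlaps in every line.

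The other members were spread on both sides of 0. Over the 47 other member probes tested in BT549 the median Log2 FC was 0.16 (quartiles -0.44 and 0.53), over 44 in Hs578T it was 0.02 (-0.29 and 0.34) and over 49 in SUM149PT -0.12 (-0.98 and 0.58), beside medians of -0.00, 0.01 and 0.09 over all probes tested. Of all tested probes, 91.0%, 93.0% and 82.2% lay below DCP2 in the 3 lines, and 21.0%, 12.1% and 21.5% below PABPC1. Among member probes DCP2 ranked 3rd, 4th and 5th from the top in the 3 lines. PABPC1 ranked 40th of 49, 42nd of 46 and 35th of 51, so several members had lower values than PABPC1, with larger errors. Of the 43 member probes tested in every line, 7 were positive and 8 negative in all 3 lines, or 34.9%, beside 39.3% of all 7990 probes. DCP2 is counted among the 7 and PABPC1 among the 8, and both were picked for their response.

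**Figure D2:**
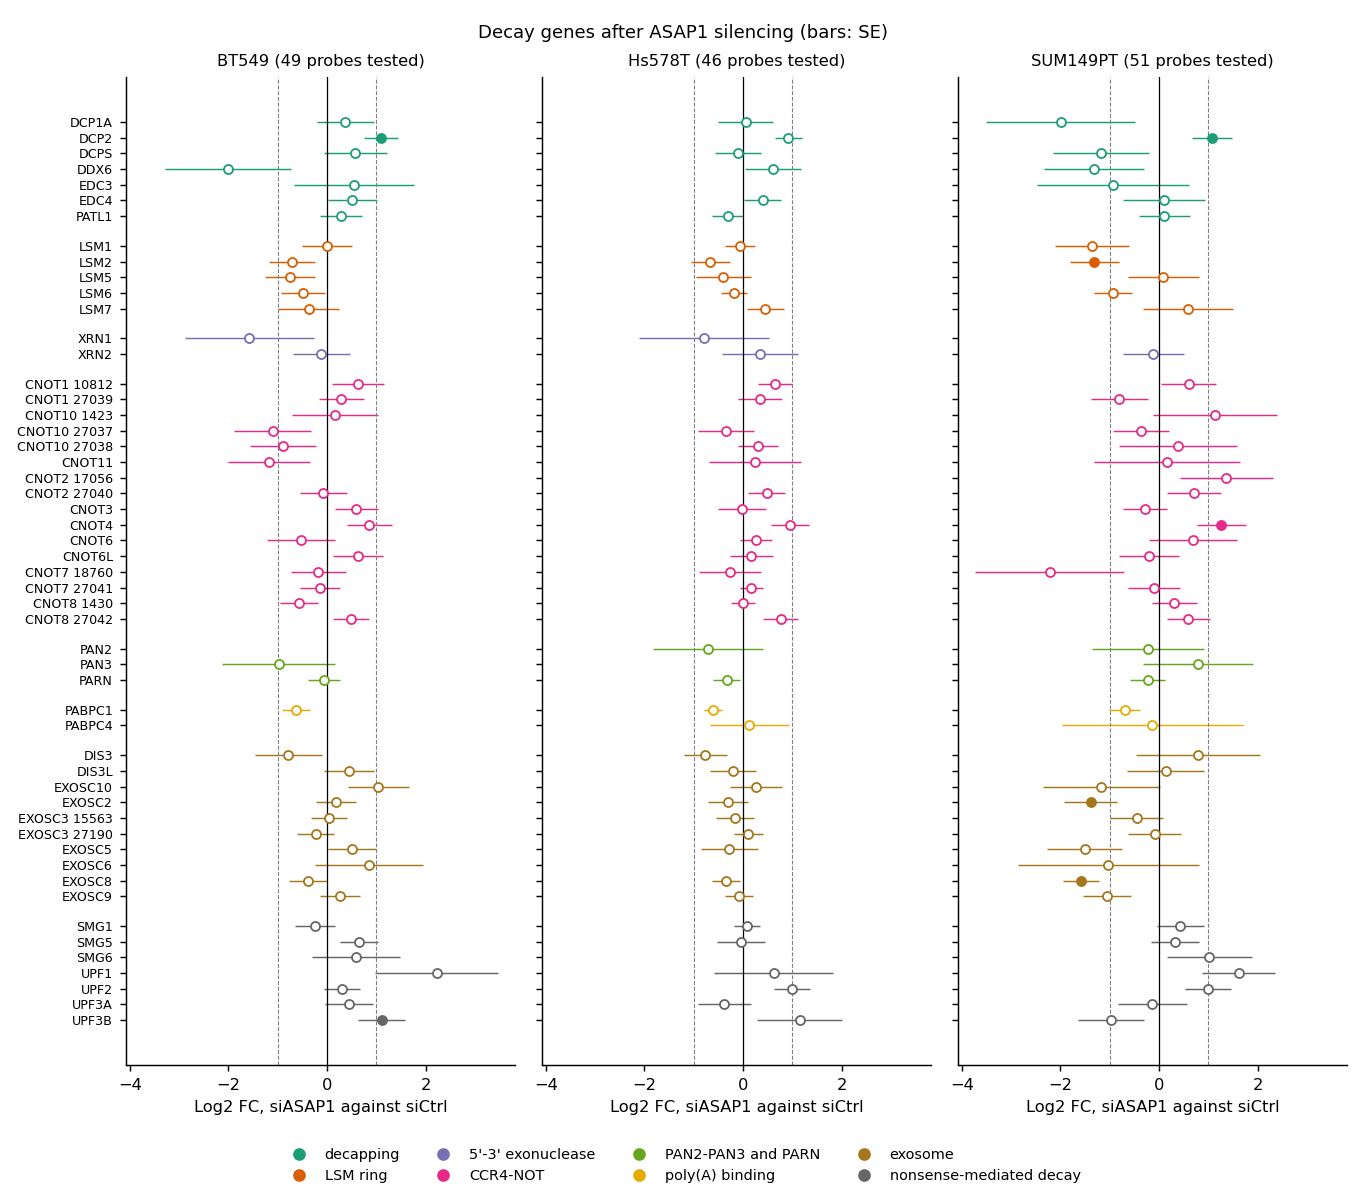
Log2 FC of siASAP1 against siCtrl (x axis) for each tested member probe (y axis), grouped and coloured by role, in 3 cell lines. Lines are SE, dashed lines mark a Log2 FC of 1 in either direction, and filled points met both limits (unadjusted p under 0.05, Log2 FC beyond 1 in either direction). Filled points number 2 in BT549, 0 in Hs578T and 5 in SUM149PT, with DCP2, picked from this contrast, among them in BT549 and SUM149PT.

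The study limited its calls to an unadjusted p under 0.05 and a Log2 FC beyond 1 in either direction, from a Wald test. The same limits were put here on limma p-values. DCP2 and PABPC1 were picked from this contrast, so they are left out of the counts that follow. In BT549 cells 1 of the 47 other member probes met the limits, UPF3B, where 6.97% of all probes did. In Hs578T cells 0 of 44 did (2 at an unadjusted p under 0.05, and 0 with voom weights), where 2.78% of all probes did. In SUM149PT cells 4 of 49 did, CNOT4, LSM2, EXOSC8 and EXOSC2, where 9.56% of all probes did. None of these other probes had an adjusted p under 0.05 within a single line (1, 2 and 5 at an unadjusted p under 0.05, and 0 adjusted with voom weights). In the same fits 0 of all 9666, 9500 and 10078 tested probes had one. With all 18 libraries in a single fit EXOSC8 did in SUM149PT (limma adjusted p = 0.015), beside 260 of all 10078 probes. Without BT549 siASAP1 replicate 1 DIS3, EXOSC10 and the most read CNOT10 probe did in BT549 (limma adjusted p = 0.048, 0.039 and 0.048), beside 544 of all 9658 probes. Without SUM149PT siCtrl replicate 2 EXOSC2 and EXOSC5 did in SUM149PT (limma adjusted p = 0.049 each), beside 107 of all 9953 probes. Groups did not overlap for 2 of the other member probes of BT549, 3 of Hs578T and 6 of SUM149PT cells, beside 13.9%, 12.1% and 17.3% of all probes. None of 41 was without overlap in the same direction in every line, beside 1.13% of all 7990 probes.

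In the fit over the 18 libraries, 1 of the 47 other member probes had an adjusted p under 0.05 (8 at an unadjusted p under 0.05), beside 1.74% of all 10475 probes. This was CNOT4, the E3 ubiquitin ligase associated with the CCR4-NOT complex. CNOT4 counts were 142, 302 and 266 against 272, 407 and 619.6 in BT549, 219, 208 and 135 against 296, 254 and 595 in Hs578T, and 295, 159 and 382 against 721, 827 and 419 in SUM149PT, siCtrl first. The groups overlapped in BT549 and not in the other lines. The common Log2 FC of CNOT4 was 1.03 (SE 0.25, limma adjusted p = 0.043). The adjusted p lay between 0.032 and 0.095 when each of the 18 libraries was left out in turn and was under 0.05 in 4 of those fits, so the call depended on which libraries were used. A difference of the response between lines was found for 0 of these 47 member probes (limma interaction, adjusted p under 0.05, 1 at an unadjusted p under 0.05 and 0 with voom weights), beside 0.00955% of all probes. The smallest interaction p among members was that of EXOSC8 (unadjusted p = 0.021, adjusted p = 0.65).

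Of the other decapping factors tested in every line, EDC4 alone was positive in all 3, and without SUM149PT siCtrl replicate 2 it was at -0.70 there. DCP1A, the activator that binds DCP2, had Log2 FC values of 0.37, 0.05 and -2.0 (SE 1.51) in BT549, Hs578T and SUM149PT cells, and in the last 1 of the siASAP1 libraries held no read of it. EDC4, the scaffold of the decapping complex, was at 0.51, 0.39 and 0.11, and PATL1 at 0.28, -0.31 and 0.11 (-0.39 without that library). DDX6 was at -2.0 (SE 1.28), 0.60 and -1.33 (-0.43 without it) and DCPS, which hydrolyses the cap left after 3'-5' decay, at 0.57, -0.10 and -1.18 (-1.90 without it). EDC3, an enhancer of decapping, was tested in BT549 (0.55) and SUM149PT (-0.94, and -1.81 without siCtrl replicate 2) from at most 22.4 normalised counts. None of them met the limits in any line with all libraries. XRN2, the nuclear 5'-3' exonuclease, had values of -0.12, 0.34 and -0.12, and the tested probe of XRN1, its cytoplasmic counterpart, was at -1.58 in BT549 and -0.79 in Hs578T from at most 45.3 normalised counts.

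In the LSM ring, LSM2 had negative values in each line, -0.71 in BT549 and -0.66 in Hs578T, and the lowest, -1.32 (SE 0.50), in SUM149PT. Its counts in SUM149PT were 167, 174 and 177 after siCtrl and 47.6, 108 and 63.1 after siASAP1, and the groups did not overlap. The call was lost when either of siCtrl replicates 1 and 3 or either of siASAP1 replicates 1 and 3 was left out (range over the 6 such fits -1.64 to -1.06). LSM6 lay at 539, 567 and 500.3 against 286, 226 and 336 in the same cells, also without overlap, with a Log2 FC of -0.94. In the fit over the 18 libraries neither passed (LSM2 -0.90, limma adjusted p = 0.072, and LSM6 -0.54, adjusted p = 0.16). LSM2 and LSM6 also belong to the nuclear ring that binds U6 RNA. LSM1, which is part of the cytoplasmic ring only, had values of -0.00, -0.06 and -1.36, with overlapping groups, and met the limits in SUM149PT without siCtrl replicate 2 (-1.98).

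Of the CCR4-NOT subunits, the scaffold CNOT1 was at 0.63, 0.64 and 0.60 (0.15 without SUM149PT siCtrl replicate 2) by its more deeply read probe and at 0.29, 0.35 and -0.81 by the other one. The deadenylase pair CNOT7 and CNOT8 gave no common direction. The deeply read probe of CNOT7 was at -0.15, 0.17 and -0.10 (-0.54 without SUM149PT siCtrl replicate 2), and the probes of CNOT8 were at -0.57, -0.01 and 0.31 (0.66 without it) and at 0.49, 0.76 and 0.60 (0.36 without it). CNOT6 and CNOT6L, the other deadenylase pair, were at -0.53, 0.26 and 0.70 (1.65 without it) and at 0.62, 0.16 and -0.20 (0.19 without it). Several of the most extreme values had large errors. CNOT11 (-1.17, SE 0.84) and the least read probe of CNOT10 (-1.11, SE 0.78) were among the lowest in BT549. The less read probe of CNOT7 (-2.22, SE 1.5, and -1.16 without siCtrl replicate 2) was lowest in SUM149PT, while the less read probe of CNOT2 (1.36, SE 0.95) and a second probe of CNOT10 (1.14, SE 1.25, and 2.31 without it) were among the highest. PAN2, the catalytic subunit of PAN2-PAN3, was at -0.71 (SE 1.12) in Hs578T and -0.23 in SUM149PT (1.04 without siCtrl replicate 2). PARN, a separate poly(A)-specific ribonuclease, was at -0.06, -0.33 and -0.23 (-0.41 without it). With all libraries only CNOT4 of these probes met the limits, in SUM149PT (Log2 FC 1.27, SE 0.49), and the call was lost without siCtrl replicate 1 or 2 or siASAP1 replicate 1 or 2 (range over the 6 such fits 0.91 to 1.56, the lowest without siCtrl replicate 2).

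The exosome had its lowest values in SUM149PT, where 8 of 10 tested probes were negative with a median of -1.04, beside a median of 0.22 in BT549 and -0.20 in Hs578T. Without siCtrl replicate 2 the SUM149PT median was -1.62. EXOSC8, a subunit of the catalytically inactive ring, was at 2471, 1969.7 and 2409 normalised counts after siCtrl and 617, 988 and 706 after siASAP1 in SUM149PT. Its Log2 FC there was -1.59 (SE 0.36, limma unadjusted p = 0.0023, adjusted p = 0.33), and it met the limits in every fit that left out a library (-1.78 to -1.44). In BT549 and Hs578T it was at -0.39 and -0.34 and the groups overlapped. EXOSC2, an RNA-binding cap subunit of the ring, was at 3229, 1128 and 4214 against 781, 1215 and 915. Its groups overlapped because siCtrl replicate 2 was low, and the Log2 FC was -1.38 with that library and -1.95 without it. The call was lost without siCtrl replicate 1 or 3 or siASAP1 replicate 1 or 3. EXOSC5, a further ring subunit, was at 0.50, -0.28 and -1.51 (SE 0.76, and -2.40 without siCtrl replicate 2), and EXOSC9 at 0.26, -0.07 and -1.06 (-1.54 without it). The catalytic subunits differed among themselves. DIS3 was at -0.78, -0.76 and 0.80 (2.25 without it) and its cytoplasmic relative DIS3L at 0.45, -0.20 and 0.13 (0.47 without it), while EXOSC10, the nuclear catalytic subunit, was at 1.04, 0.26 and -1.17 (-2.36 without it). None of these 3 met the limits with all libraries.

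Among nonsense-mediated decay factors, 6 of 7 probes were positive in the fit over the 18 libraries, with a median of 0.43, and 0 passed. UPF2, which bridges UPF1 and the exon junction complex, was closest (Log2 FC 0.76, SE 0.22, limma adjusted p = 0.086), with values of 0.31, 0.99 and 0.99 in the 3 lines (the last 0.58 without SUM149PT siCtrl replicate 2). UPF1, the helicase at the centre of the pathway, was at 1.49 (SE 0.59, adjusted p = 0.21), with 2.22, 0.62 and 1.62 in the lines, from at most 80.8 normalised counts a library. The paralogs UPF3A and UPF3B, which tether UPF2 to the exon junction complex, had unlike values. UPF3B counts in BT549 were 97.3, 86.1 and 88.4 after siCtrl and 118, 324 and 197 after siASAP1 (Log2 FC 1.11, SE 0.47), a call lost when any of 5 of the 6 libraries was left out. In Hs578T the Log2 FC of UPF3B was 1.15 (SE 0.86) and in SUM149PT -0.98, with overlapping groups in both. UPF3A was at 0.44, -0.38 and -0.13 (-0.97 without siCtrl replicate 2). The endonuclease SMG6 and SMG5, which recruits other decay enzymes to UPF1, were at 0.59 and 0.65 in BT549 and at 1.02 and 0.32 in SUM149PT, where SMG5 was at -0.02 without siCtrl replicate 2.

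Much of the variation of these genes lay between replicates of a group. The main axis of the deviations from the group means carried 42.5% of that variation over 10475 probes, and SUM149PT siCtrl replicate 2 had the highest score (1.35, in log2 units per probe), BT549 siASAP1 replicate 1 the next (0.83) and SUM149PT siASAP1 replicate 2 the lowest (-0.90). Of 49 member probes, 21 had a correlation above 0.7 in size with the score over the 18 libraries (42.9%, beside 36.6% of all probes), 10 positive and 11 negative. These correlations share the libraries from which the axis was made. DIS3 (r = 0.94), CNOT10 (0.91 for its most read probe), CNOT6 (0.91) and CNOT8 (0.91 for its more deeply read probe) stood at the positive end. EXOSC10 (-0.96), DCPS (-0.92), EXOSC5 (-0.91) and EDC4 (-0.90) stood at the negative end, followed by EXOSC2 (-0.86) and EXOSC9 (-0.84), with EXOSC8 at -0.50. The exosome thus lay on both sides, with EXOSC3 (0.74 and 0.50 for its 2 probes) and DIS3L (0.65) positive beside DIS3. These values are over the libraries of all 3 lines, not over SUM149PT alone. In the 3 siCtrl libraries of SUM149PT DIS3 ranged over 72.9, 878 and 24.0 normalised counts, and EXOSC10 over 442, 41.0 and 561. DCP2 (0.39), CNOT4 (-0.51) and PABPC1 (0.16) were less tied to the score. What set the score, and its part in the calls, was not tested. Replicate pairs differed in every group by more than counting error (chi-square per degree of freedom 10.1 to 247).

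**Figure D3:**
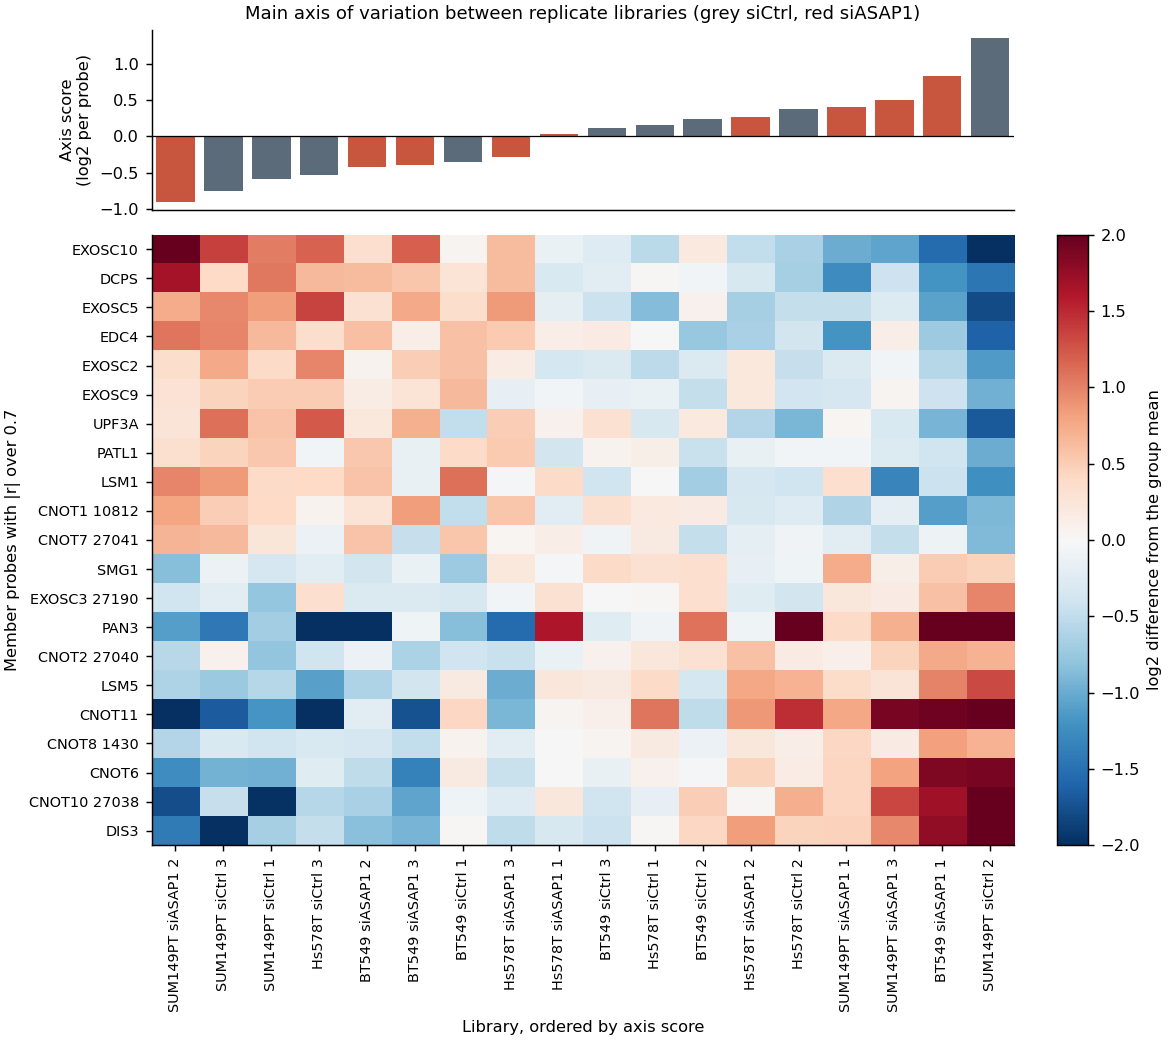
Top, score of each library on the main axis of deviations from the group means (y axis, log2 units per probe). Below, log2 difference from the group mean (colour, cut off at 2 in either direction) for the 21 member probes with a correlation above 0.7 in size with that score, libraries ordered by score. SUM149PT siCtrl replicate 2 and BT549 siASAP1 replicate 1 stand at the right end, with DIS3, CNOT6 and CNOT11 high and EXOSC10, DCPS and EXOSC5 low.

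The number of calls depended on these libraries. Without BT549 siASAP1 replicate 1, 13 of the 47 member probes other than DCP2 and PABPC1 met the limits in BT549, and 22.5% of all probes did. Without SUM149PT siCtrl replicate 2, 9 of 48 did in SUM149PT, and 23.4% of all probes did. With DCP2 and PABPC1 included as a description, leaving out the other libraries gave 0 or 1 called member probe in BT549 and 1 to 4 in SUM149PT. Of all probes, these fits called from 325 of 9444 to 521 of 9711 in BT549. In SUM149PT they called from 501 of 10118 to 1143 of 10018. The 2 extended sets ran in opposite directions for shared members. DIS3 was at -1.67 in BT549 and 2.25 in SUM149PT, CNOT6 at -1.46 and 1.65, EXOSC10 at 1.81 and -2.36 and EXOSC5 at 1.04 and -2.40. DCP2, picked from this contrast and not in these counts, was at 1.26 in both.

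Cell line differences were tested in the siCtrl libraries and again in the siASAP1 libraries. DCP2 and PABPC1 were picked with all of these libraries, so their values between lines are given as a description. The limits were a limma adjusted p under 0.05 with a Log2 FC beyond 1 in either direction. Between Hs578T and BT549 4 of 49 member probes passed in siCtrl libraries, or 8.16%, beside 13.8% of all probes, and 7 of 50 in siASAP1 libraries, beside 19.5%. Between SUM149PT and BT549 2 of 49 and 5 of 50 passed, beside 18.2% and 21.7%. Between SUM149PT and Hs578T 2 of 49 and 8 of 50 passed, beside 20.2% and 27.9%, with PABPC1 among the 8.

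EXOSC3, an RNA-binding cap subunit of the exosome, was higher in BT549 than in both other lines by each of its 2 probes. The more deeply read probe held 2547, 4541 and 4192 normalised counts in the siCtrl libraries of BT549, 754, 863 and 2164 in Hs578T and 775, 1572 and 1031 in SUM149PT. The second probe held 1164, 1836 and 1458, then 419, 319 and 515, then 210.2, 707 and 310.1. For both probes every BT549 library lay above every library of the other lines. The Log2 FC of Hs578T against BT549 was -1.70 (adjusted p = 0.037) and -1.83 (adjusted p = 0.024), and that of SUM149PT against BT549 -1.76 (adjusted p = 0.026) and -2.02 (adjusted p = 0.011), by limma. In the siASAP1 libraries the same 4 values were -1.90, -1.49, -2.25 and -1.88, all called. When 1 library was left out, the siCtrl calls of the more deeply read probe were lost in 5 of 9 fits against Hs578T (adjusted p up to 0.15) and 4 of 9 against SUM149PT (up to 0.11), among them those without BT549 replicate 2 or 3, and the calls of the second probe in 4 and 1 of 9. The 2 probes correlated over the 18 libraries (r = 0.93) and in their deviations from the group means (r = 0.72). In contrast, the 2 probes of CNOT8 correlated at -0.56 in their deviations.

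UPF3B was lower in Hs578T than in BT549, with 14.3, 4.08 and 46.3 against 97.3, 86.1 and 88.4 normalised counts in siCtrl libraries (Log2 FC -2.57, limma adjusted p = 0.047). In siASAP1 libraries the value was -2.53 (adjusted p = 0.021). SMG1, the kinase that phosphorylates UPF1, was lower in Hs578T too, with 1134, 863 and 793 against 1524, 3196 and 3296 (Log2 FC -1.46, adjusted p = 0.031). In siASAP1 libraries SMG1 was at -1.13 in this comparison and was not called. Its gene has duplicated partial copies, so its reads may be shared. EXOSC8 was higher in SUM149PT than in Hs578T in siCtrl libraries (Log2 FC 1.65, adjusted p = 0.0071) and at 0.40 in siASAP1 libraries, not called. The siCtrl call of EXOSC8 held in each of 9 fits that left out a library, whereas those of UPF3B, SMG1 and LSM5 were lost in 7, 5 and 7 of them (adjusted p up to 0.14, 0.14 and 0.16). LSM5 was lower in SUM149PT than in Hs578T (Log2 FC -2.18, adjusted p = 0.040), with 1 of the Hs578T libraries inside the range of SUM149PT. LSM7 was called in siASAP1 libraries alone, with 316, 260.2 and 180.2 normalised counts in Hs578T against 32.9, 39.6 and 46.5 in BT549 (Log2 FC 2.61, adjusted p = 0.0020) and 47.6, 70.5 and 47.3 in SUM149PT. In siCtrl libraries the same difference from BT549 was 1.80.

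The Log2 FC of DCP2 against BT549 was -0.68 in Hs578T and -0.50 in SUM149PT in siCtrl libraries, and -0.85 and -0.52 in siASAP1 libraries. PABPC1 had its lowest counts in SUM149PT. Against Hs578T its Log2 FC was -1.06 in siCtrl libraries and -1.15 in siASAP1 libraries, and the latter was -0.73 with quantile normalization.

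**Figure D4:**
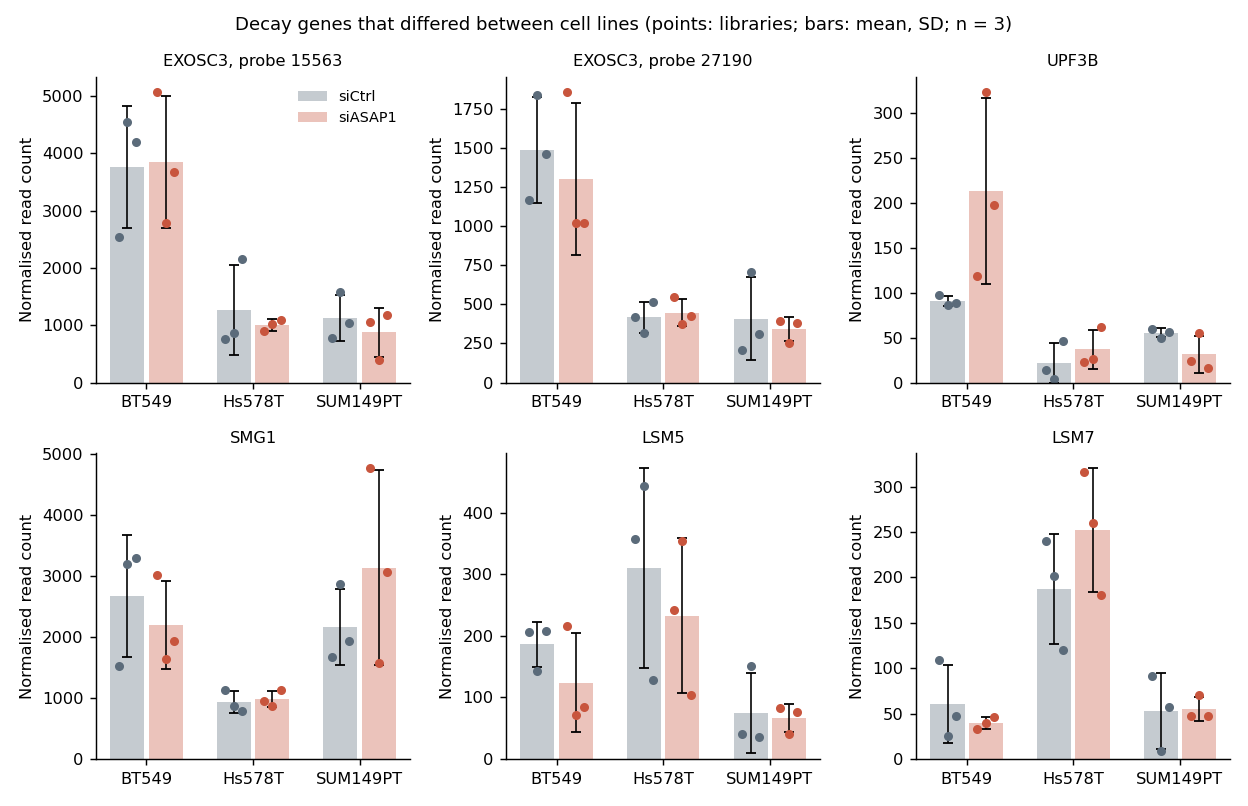
Normalised read counts (y axis, linear, from 0) of EXOSC3 (2 probes), UPF3B, SMG1, LSM5 and LSM7 in the 3 cell lines after siCtrl (grey) or siASAP1 (red). Points are libraries, bars are means and lines are SD (n = 3). Both EXOSC3 probes are higher in each BT549 library than in the Hs578T and SUM149PT libraries, and LSM7 is highest in Hs578T.

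A second list, also chosen with earlier results of these data known, held 64 further mRNA decay genes. Among them were the GW182 proteins, the TOB and ZFP36 families and the exon junction complex. Of the probes on this list 3 of 61 met the limits after siASAP1 in BT549 cells, 1 of 59 did in Hs578T cells and 5 of 60 did in SUM149PT cells, beside 6.97%, 2.78% and 9.56% of all probes. TNRC6A, a GW182 protein that recruits CCR4-NOT to microRNA targets, was called in both BT549 and SUM149PT. It was the single gene of 63 tested probes with an adjusted p under 0.05 over the 18 libraries, beside 1.74% of all 10475 probes. Its common Log2 FC was 1.04 (SE 0.24, limma adjusted p = 0.034). Its counts were 999, 2159 and 1781.8 against 2704, 3345 and 4989 in BT549, 508, 366 and 1223 against 1237, 754 and 1454 in Hs578T and 1382, 900.1 and 2033 against 3219, 2734 and 2673 in SUM149PT. The groups overlapped in Hs578T alone. The adjusted p ranged from 0.0093 to 0.076 when each library was left out and was under 0.05 in 5 of 18 fits. In SUM149PT TOB1, which links deadenylases to PABPC1, met the limits as higher (Log2 FC 1.30) and HNRNPD, an AU-rich element binding protein, as lower (-1.54). PNRC1, which can recruit DCP1A and DCP2 to the nucleolus, met them as lower in BT549 (-1.01). PAIP1, which binds PABPC1, was lower in BT549 (-3.14, SE 1.37), HBS1L, a ribosome rescue factor, higher in Hs578T (1.35), and ZFP36L1, an AU-rich element binding protein, and TNKS1BP1, a CCR4-NOT partner, higher in SUM149PT (2.88 and 1.16). Between lines in siCtrl libraries, the calls on this list were 1 of 59 for Hs578T against BT549 (HBS1L, -4.08), 3 for SUM149PT against BT549 (TNRC6C -3.29, PNRC1 -2.07 and ZFP36L2 2.84) and 3 for SUM149PT against Hs578T (TNRC6C -4.05, PNRC1 -1.97 and SMG9 1.75), beside 13.8%, 18.2% and 20.2% of all probes.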

How the data were processed

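TempO-Seq libraries of 3 TNBC lines with siASAP1 or siCtrl (50 nM, 72 h, biological triplicates per the study's methods) were grouped by their labels. The authors scaled each library's probe reads with DESeq2 size factors, and the deposited values are log2 of the scaled reads plus 1. The submitters' processing notes also name bcl2fastq and Bowtie, and the genome build is not given in the sources used here. Whole reads were recovered for 100% of values (within 0.01 reads), 4633629 to 12488575 a library (median 6.63 M). Counting intervals are not given because replicates differed by far more than counting error.

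The log2 values were tested with moderated linear models (limma 3.58.1 under R 4.3.3, with an intensity trend) on probes with a mean normalised count of at least 10, over the whole table, with Benjamini-Hochberg adjustment. The plan named a test for log2 values, so no count model was run. Each line was fitted on its 6 libraries, the common effect and the interaction on 18, and line differences on 9. Groups of 3 libraries were also compared by exact permutation. Alternatives were other scalings, filters and pseudocounts, voom weights, all libraries in a single fit, the replicate number as a block and each library left out. Members and lists were chosen with earlier results of these data known. Members named are DCP2 and PABPC1, paralog pairs, up to 4 a direction with the largest Log2 FC in each line and with the smallest p over 18 libraries, all that met the limits, up to 6 a direction called between lines in siCtrl libraries, and up to 3 a direction of the second list. Other named members serve to describe their role. Promoters came from RefSeq (GRCh38.p14), with 43 of 51 members matched by symbol. Plots used matplotlib 3.10.9 under Python 3.11.15.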

Additional observations from a re-analysis of the deposited data

How the results depend on the processing

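The number of member probes called after siASAP1, DCP2 and PABPC1 included as a description, changed with several settings as well as with the libraries used. In BT549 (2 called) it was 0 with adjusted p-values, and 0 to 14 when each library was left out. The same counts over all probes were 674 of 9666, then 0 and 325 to 2169. In Hs578T (0 called) the member count was 3 with scaling by library totals, 1 with quantile normalization, 2 with no filter on low counts and 0 to 4 without each library. Over all probes the counts were 264 of 9500, then 285, 277, 430 of 14505 and 158 to 634. In SUM149PT (5 called) the member count was 4 with quantile normalization, 8 with all 18 libraries in a single fit, 0 with adjusted p-values and 1 to 10 without each library. Over all probes the counts were 963 of 10078, then 933, 1560, 0 and 501 to 2325. Over all lines (3 called) the member count was 2 with scaling by library totals, 1 with quantile normalization, 1 with no filter and 1 to 4 without each library. Over all probes the counts were 182 of 10475, then 202, 152, 111 of 17870 and 99 to 206. The interaction stayed at 0 called member probes in its 25 alternatives. In siCtrl libraries the member counts without each library were 0 to 8 for Hs578T against BT549 (4 called) and 0 to 13 for SUM149PT against BT549 (2 called). For SUM149PT against Hs578T (2 called) they were 1 to 11, and 6 with all 18 libraries in a single fit. Over all probes the counts without each library were 906 to 2152, 1313 to 3351 and 1362 to 3103 in the same order. The highest of each came without SUM149PT siCtrl replicate 2, where 21.3%, 33.2% and 30.7% of all probes were called. In siASAP1 libraries the member counts were 3 to 10, 2 to 9 and 3 to 11 for 7, 5 and 8 called. The causes were not tested, beyond the smaller number of libraries. Scaling by library totals moved the median Log2 FC of all probes from 0.09 to 0.29 in SUM149PT and from 0.01 to 0.12 in Hs578T, and in SUM149PT 5 member probes were then called as 4 higher and 1 lower in place of 2 and 3.

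By the limit of a correlation over 0.1 in every pair, the replicate numbers were not taken to pair the libraries. For siASAP1 and siCtrl libraries of the same number, deviations from the group means correlated at -0.19, -0.39 and 0.14 in BT549 and -0.33, -0.66 and -0.35 in SUM149PT. In Hs578T they correlated at 0.0998, 0.42 and 0.41, so that 1 pair lay just under the limit. In BT549, Hs578T and SUM149PT 1, 3 and 0 of 3 libraries correlated best with their own number, so Hs578T came closest. With the replicate number as a block, 1 member probe was called in BT549, 0 in Hs578T, 1 in SUM149PT and 1 over all lines. Of all probes 6.11%, 4.58%, 3.48% and 0.325% were called in these fits. In Hs578T the block raised all probes at an unadjusted p under 0.05 from 502 to 1246 and at an adjusted p under 0.05 from 0 to 37 (limma). Member probes at an unadjusted p under 0.05, DCP2 and PABPC1 included, rose from 4 to 8 there. The errors and p-values given above for Hs578T come from the fit without the block.

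No Log2 FC of DCP2, PABPC1 or ASAP1 after silencing changed sign in any setting. DCP2 ranged from 0.77 to 1.29 over lines and settings and PABPC1 from -0.82 to -0.25. Of 768 values for single probes under alternatives, 634 stayed on their side of the limits or within the replicate spread, 130 lost their call in the same direction and 4 moved, all for PABPC1. At these depths 6 member genes stayed below the count needed for a test.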
